A study of Mus musculus with 3 samples.

Results

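The genes of 9 long cytoskeletal linker proteins were followed in RNA that was pulled down with endothelial ribosomes from mouse hearts. They are the spectrins Sptbn1 and Sptan1, the plakins Dst, Macf1 and Plec, the scaffold gene Ahnak, and the adhesion genes Utrn, Tns1 and Tln1. Members were taken by gene symbol, and all 9 of 9 were found among the 17583 genes of the deposited table. The set had been put together because several of its genes stood among the highest values of that table, so the levels and ranks below describe the genes and were not tested.

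The samples were hearts of 3 Cdh5-CreERT2;Rpl22tm1.1Psam mice (EC-RiboTag), 1 library per mouse and a single condition. In these mice a tamoxifen-inducible Cre, driven by the promoter of the endothelial gene Cdh5, switches the ribosomal protein gene Rpl22 to a form with a hemagglutinin tag. Tagged ribosomes were pulled down from heart homogenate, and their RNA was read in single-end reads of 72 bases. Mice in this work were of both sexes, 8 to 20 weeks old and on a C57BL/6 background, without an age or sex given for each library. The labels place the hearts at day 7 after coronary ligation, the RiboTag methods mention no infarction, and the sample titles carry the letters Rz. Elsewhere in the same work RZ stands for the remote zone of infarcted EC-RiboTag hearts, but the labels do not spell out Rz, so infarction and heart zone are not settled here. No untreated, input or Cre-negative library was analysed here, and no difference between conditions could be tested.

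Spectrins are long rod-like proteins that form tetramers of alpha and beta chains and, with actin and ankyrins, build a flexible skeleton under the plasma membrane. Plakins join actin filaments to microtubules or intermediate filaments and anchor these to junctions. Talin and tensin connect integrins to actin at focal adhesions, and utrophin, the relative of dystrophin, connects actin to laminin through dystroglycan. In endothelial cells these links hold the cell to its neighbours and to the basement membrane against blood flow and stretch.

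The deposited values are normalized read counts, in which the authors scaled each library by a size factor and rounded to whole numbers. They summed to between 7149102 and 7268785 per library, from about 6754000 to 7565000 reads. All 12 of 12 endothelial markers reached a mean of 200, among them Pecam1 at 2746 ± 91.8 and Cdh5 at 2866 ± 61.2 (SD, n = 3 mice), and their summed level ranged from 29951 to 31442. Cardiomyocyte markers were also present, 10 of 10 with means above 200 and a summed level from 22024 to 25572. Of the defining markers of other cells, 6 of 7 fibroblast, 5 of 8 mural, 1 of 6 leukocyte, 0 of 3 erythroid and 0 of 3 Schwann cell markers reached that mean, and none of the markers was at 0 in any mouse. The summed levels ranged from 2703 to 3515 for fibroblast, 1610 to 2274 for mural, 565 to 757 for leukocyte, 215 to 247 for erythroid and 42 to 44 for Schwann cell markers. The 9 linker genes are expressed in several of these cell types, and the part that RNA of other cells took in their values was not tested.

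The linker genes share sequence with relatives and, in 1 case, with themselves, and this bears on which reads could be counted, because the authors removed reads that map to more than 1 place. Each 72-base window of the canonical transcript (GENCODE, GRCm39) was therefore looked up for exact copies. The search covered the genome outside the gene's own span and the transcript itself. Other copies inside that span, such as in introns, were not counted. In 7 members, 0 windows had an exact copy by this search. Ahnak had 2912 of 18366 such windows (15.9%), all of them repeats within its own transcript, and Dst had 868 of 23130 (3.75%), with the copies on other chromosomes. The Ahnak window with the most copies occurred 5 times in its long coding exon 5, first at chr19:8986482-8986553 on the plus strand, with 1 pair of neighbouring copies 384 bases apart. Of the shifts tried, all whole codons and far shorter than the transcript, 384 bases also gave its best match with itself (44.6% of bases identical). The window is shown as an example of the repeats that make up the centre of the AHNAK protein, and all of its bases recur:
Ahnak repeat: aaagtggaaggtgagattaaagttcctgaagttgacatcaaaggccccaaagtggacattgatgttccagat

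Between the members and the other genes of their families, 27 pairs were compared, and the closest pair of windows differed at 2 to 29 of 72 bases. None of the 27 pairs had an identical window, so a full-length read without errors from a member's canonical transcript had no exact match in that of a relative. The 3 pairs below are shown because they hold the closest windows of the plakin and dystrophin families and of the members Dst and Macf1, each within 1 coding exon, with capitals at the bases that differ. The first is Plec at chr15:76061431-76061502 in exon 32 against the epiplakin gene Eppk1 at chr15:75991648-75991719, both on the minus strand, with 2 differences. The others are Dst at chr1:34333517-34333588 (plus strand, exon 94) against Macf1 at chr4:123261707-123261778 (minus strand, exon 91), and Utrn at chr10:12281631-12281702 (minus strand, exon 71) against Dmd at chrX:84221449-84221520 (plus strand, exon 75), each with 9 differences:
Plec: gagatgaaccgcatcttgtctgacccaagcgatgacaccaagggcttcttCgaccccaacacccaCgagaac
Eppk1: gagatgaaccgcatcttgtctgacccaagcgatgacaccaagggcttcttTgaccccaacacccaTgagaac
Dst: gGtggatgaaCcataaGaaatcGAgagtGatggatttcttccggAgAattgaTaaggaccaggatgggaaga
Macf1: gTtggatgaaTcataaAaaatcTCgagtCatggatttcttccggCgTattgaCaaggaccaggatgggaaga
Utrn: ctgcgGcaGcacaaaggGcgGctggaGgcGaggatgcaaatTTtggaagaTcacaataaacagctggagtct
Dmd: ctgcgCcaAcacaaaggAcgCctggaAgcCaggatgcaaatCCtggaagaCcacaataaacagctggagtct

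Spectrins were represented by 1 beta and 1 alpha chain. The normalized counts of Sptbn1, non-erythroid beta spectrin (chr11:30049395-30218175 in mm39, minus strand), came to 4190 and 4099 in mice 1 and 2 and to 5023 in mouse 3, with a mean of 4437 ± 509 (SD, n = 3 mice) and rank 5 of all genes. Sptan1, the non-erythroid alpha spectrin with which it forms tetramers (chr2:29855572-29921463, plus strand), had 1984, 1977 and 2628 in the same order, a mean of 2196 ± 374 and rank 163. In both genes mice 1 and 2 lay within 5% of each other and mouse 3 lay above them. In these bulk samples, fewer cells of a type and less RNA per cell cannot be told apart.

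Plakins held ranks 8, 15 and 89. Dst, which encodes dystonin, a linker of actin, microtubules and intermediate filaments in its different isoforms (chr1:33947306-34347742, plus strand), had 3381, 3727 and 5151, a mean of 4086 ± 938. Macf1, the microtubule-actin crosslinking factor (chr4:123243426-123581331, minus strand), had 3440, 3670 and 4386, a mean of 3832 ± 493. Plec, plectin, which binds intermediate filaments such as vimentin (chr15:76055174-76116774, minus strand), had 2044, 2558 and 2853, a mean of 2485 ± 409. All 3 plakins were lowest in mouse 1 and highest in mouse 3, and Dst in mouse 3 was the highest value of any of the 9 genes in any mouse. Of the exons of Plec, 205 bases (1.13%) lie on the same strand as exons of Parp10, and reads over both genes were left out by the counting. No other member shared exon bases with another gene on its strand.

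Ahnak, a giant scaffold under the plasma membrane that binds the annexin A2 and S100A10 complex (chr19:8966648-9054278, plus strand), had 4075, 4171 and 4432, a mean of 4226 ± 185 and rank 7. Its coefficient of variation between mice, the SD as a share of the mean, was 4.37%, the lowest of the 9 genes. Mouse 3 was again highest, by 1.07-fold over the mean of the other 2 mice.

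Among the adhesion genes, Tns1, tensin 1, which binds the tails of beta integrins and actin (chr1:73949390-74163608, minus strand), had 3876, 3773 and 4293, a mean of 3981 ± 275 and rank 9. Tln1, talin 1, which binds and activates integrins (chr4:43531519-43562691, minus strand), had 2123, 2060 and 2555, a mean of 2246 ± 269 and rank 146. Utrn, utrophin (chr10:12257932-12745109, minus strand), had 1415, 1431 and 1879, a mean of 1575 ± 263 and rank 599. Mice 1 and 2 were within 5% of each other in all 3 adhesion genes, and mouse 3 lay above both.

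**Figure D1:**
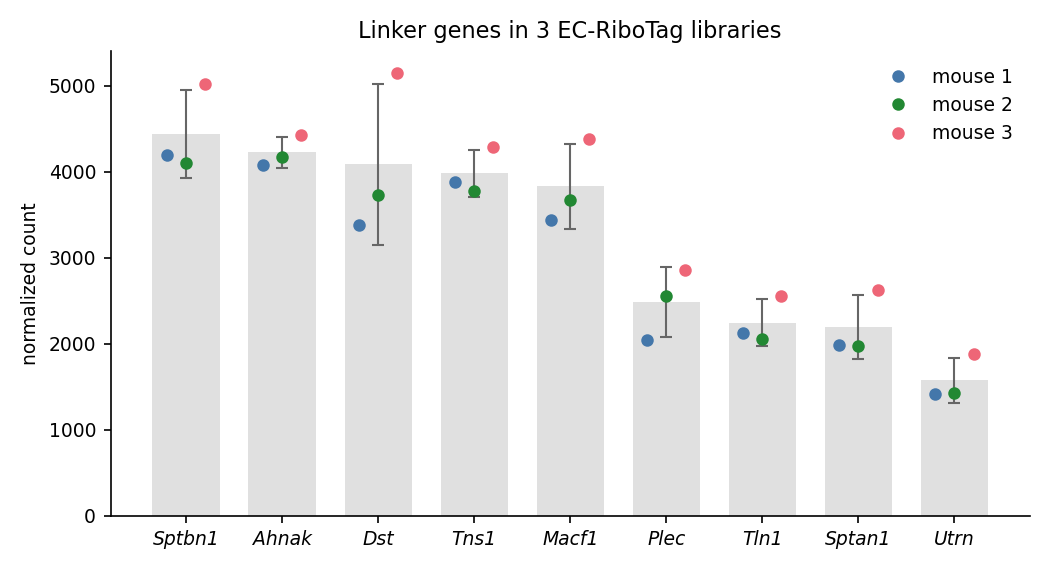
Normalized read counts of the 9 linker genes in each of the 3 mice (points), with the mean (grey bar) and SD over mice (error bar), ordered by mean. Mouse 3 is the highest point for every gene, from 4432 against 4171 for Ahnak to 5151 against 3727 for Dst, and Macf1 (3832) and Plec (2485) are separated by more than their SDs.

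Of the 9 genes, 4 stood among the 10 highest means and 6 among the 100 highest, a set that with ties holds 0.574% of all genes; since the genes were picked on their level, nothing follows from these counts. Together they took 0.371%, 0.384% and 0.457% of the summed counts of mice 1, 2 and 3. From the highest to the lowest mean the span was 2.82-fold. Of the 8 pairs of neighbours in that order, 2 were further apart than the larger SD of the pair, Macf1 above Plec and Sptan1 above Utrn, and both held in all 3 mice. The other 6 pairs of neighbours were no further apart than the larger SD. Over a longer step in the same order, Sptbn1 lay above Macf1 by more than the larger SD and in all 3 mice.

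Counts grow with transcript length, and these transcripts are long. The median canonical transcript of the 9 genes was 13544 bases, against 3662 over the 9356 genes whose mean was 200 or more and whose length was known. Macf1 has 23537 bases in 98 exons, Dst 23201 in 103 and Ahnak 18437 in only 5 exons, whereas Sptan1, at 8247 bases in 56 exons, is the shortest. Coding sequence made up 99.8% of the Dst transcript and 53.4% of the Tns1 transcript.

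Per kilobase of canonical transcript, the order of the genes changed and their span widened to 4.50-fold. Sptbn1 had 494, 483 and 592 normalized counts per kb in mice 1, 2 and 3, with a mean of 523 ± 60.02. It was the only member among the highest 10% of genes on this scale (rank 471 of 9356, with a limit of 428 per kb and 9.99% of genes above it). Tns1 followed with 378, 368 and 419 per kb and a mean of 388 ± 26.9 (rank 1250). Sptbn1 lay above Tns1, and Tns1 above Tln1, in all 3 mice and by more than the larger SD. Per kb of coding sequence, however, Tns1 came first with 727 and Sptbn1 followed with 626, and per kb of joined exons Sptbn1, Tns1 and Tln1 had 253, 235 and 229.

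The middle of this order held Tln1 at 267 ± 32.1 per kb, Sptan1 at 266 ± 45.3 and Ahnak at 229 ± 10.0. Sptan1 was within the larger SD of both Tln1 and Ahnak, whereas Ahnak lay below Tln1 and above Dst by more than the larger SD and in all 3 mice. With only the windows without an exact copy as its length, an alternative added after the data had been seen, Ahnak came to 273 per kb, against 270 for Tln1 and 269 for Sptan1. The place of Ahnak among these 3 genes thus changed with the windows counted.

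Dst, at 176 ± 40.4 per kb (rank 4682), was level with the median gene, which had 176 per kb. Plec had 166 ± 27.3 and Macf1 163 ± 21.0, both a little under that median, and the 3 plakins did not differ from each other by more than their SDs. Utrn was the lowest at 116 ± 19.4 per kb (rank 6565), under Macf1 in all 3 mice. Thus 5 members lay above the median gene and 3 lay below it, with Dst at the median, whereas in counts all 9 were above the median of 587 of the genes with means of 200 or more. That median gene is taken over all lengths, and values per kb fell with length. The class medians were 446 per kb under 1000 bases, 86.5 from 8000 to 12000 bases and 65.8 from 12000 bases on. All 9 members, picked on their level, lay above the median of their own length class. Lengths depend on the transcript: with all annotated exons joined, Dst had 90.5 per kb, because Dst has 22 annotated transcripts whose exons add up to 45141 bases. The deposited values do not tell which transcripts were used.

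**Figure D2:**
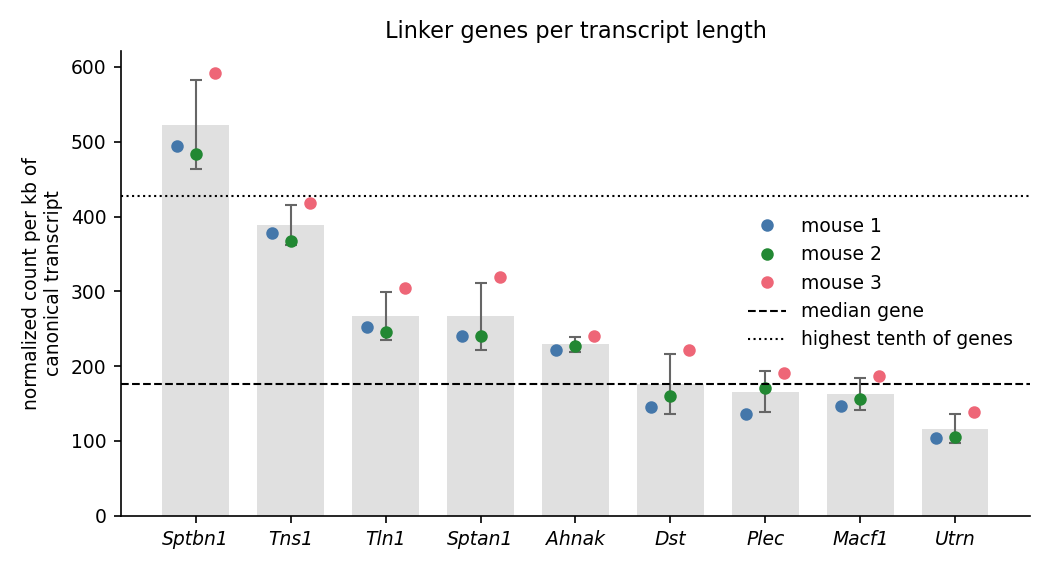
Normalized counts per kilobase of canonical transcript of the 9 linker genes in each mouse (points), with the mean (grey bar) and SD (error bar), the median of 9356 genes (dashed line, 176 per kb) and the limit of the highest 10% (dotted line, 428 per kb). Sptbn1 at 523 is the only gene above the dotted line, and Dst (176), Plec (166) and Macf1 (163) lie close to the dashed line. Both lines are over genes of all lengths.

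Beta spectrin counts came mostly from Sptbn1. Its share of the summed counts of the 5 beta spectrin genes was 89.1%, 89.1% and 89.5% in the 3 mice (89.2% ± 0.24). Sptb, the erythroid and muscle beta spectrin, followed with 330 ± 25.5 counts, whereas Sptbn4 and Sptbn5 had means of 26.0 and 27.3. Per kb of canonical transcript, Sptbn1 was 2.05, 2.02 and 1.86 times Sptan1 in the 3 mice (1.98 ± 0.10). Per kb of joined exons the 2 genes had 253 and 161, and per kb of coding sequence 626 and 296. The chains pair in equal number in the tetramer, but these are RNA values and do not give the number of chains.

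Plakin counts were divided among 4 genes. Dst held 33.6% ± 2.3 of the summed counts of the 7 plakin genes, Macf1 31.8% ± 0.93 and Plec 20.6% ± 1.4. Dsp, the desmoplakin of desmosomes, came next with 1407, 1369 and 1387 counts and was the one of these 4 genes that was not highest in mouse 3. Per kb, the shares were nearly even, at 25.2% for Dst, 23.9% for Plec, 23.5% for Macf1 and 21.1% for Dsp. The ratio of Dst to Macf1 counts was 0.983, 1.016 and 1.17 in mice 1, 2 and 3, so that the gene with more counts was not the same in all mice. The epithelial plakins were low, with Ppl at 197 ± 136, Evpl at 83.3 ± 18.1 and Eppk1 at 6.33 ± 4.7 counts.

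In the other families 1 gene also led. Ahnak held 93.4% ± 1.1 of the counts of the AHNAK pair and 89.7% per kb. Utrn held 63.9% ± 2.5 of the dystrophin family, and its ratio to Dmd, the dystrophin gene, was 1.88, 1.59 and 1.93 (1.80 ± 0.19). Dmd is a gene of muscle and nerve, and its 875 ± 112 counts stand beside the cardiomyocyte markers given above. Drp2 had 13.3 ± 6.5 counts.

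Tln1 exceeded Tln2 by 2.40, 3.17 and 3.09-fold in counts (2.89 ± 0.43) and held 74.0% ± 3.0 of the talins, or 80.5% per kb. Tns1 exceeded Tns2 by 2.35, 2.52 and 2.10-fold in counts. Per kb of canonical transcript the ratio of Tns1 to Tns2 was 1.09, 1.17 and 0.977 (1.08 ± 0.10). This puts the 2 tensins level on that scale, since Tns2 has a transcript of 4768 bases against 10255 for Tns1. Their coding sequences are closer in length, at 4200 bases for Tns2 and 5478 for Tns1, so by coding length Tns1 stays above Tns2. Tns3 had 402 ± 122 counts, and Tns4 was at 0, 5 and 4.

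**Figure D3:**
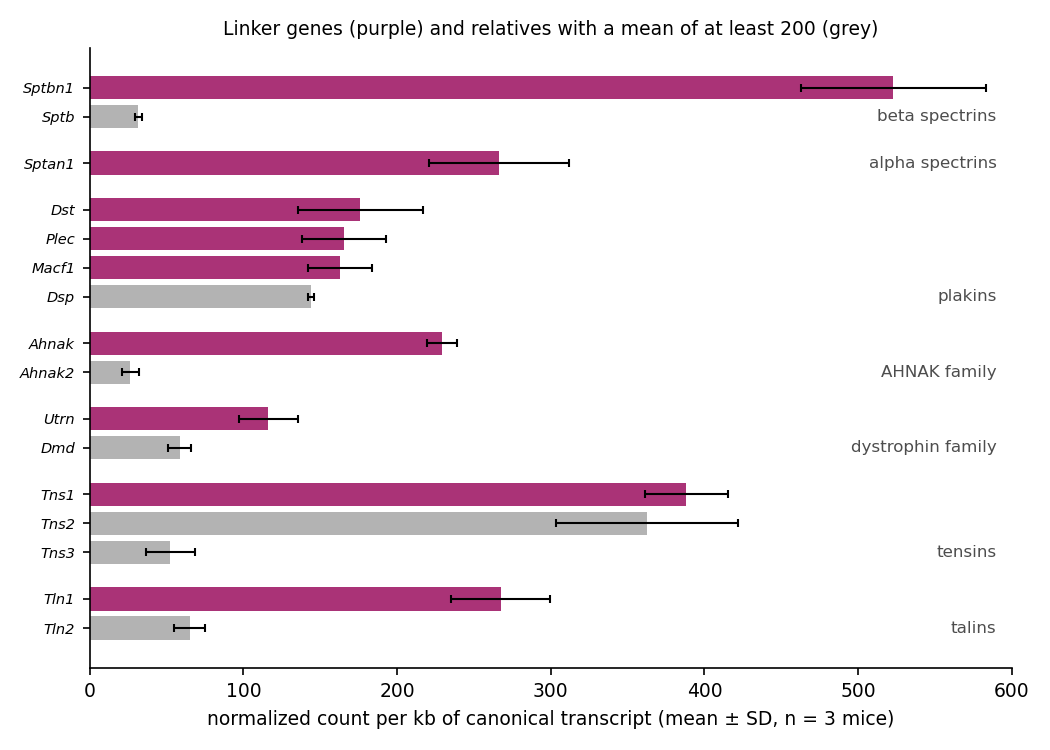
Normalized counts per kilobase of canonical transcript (mean and SD over 3 mice) of the 9 linker genes (purple) and of the other genes of their families with means of 200 or more (grey). Sptbn1, Ahnak and Tln1 stand well above their relatives, whereas Dst, Plec, Macf1 and Dsp lie between 144 and 176 per kb and Tns1 (388) and Tns2 (363) are level.

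Known binding partners of the linkers were measured as lists. Of the 15 spectrin skeleton partners, 11 had a mean of at least 200, and the median over all 15 was 451. The median was 237 for all genes of the table and 587 for those with a mean of at least 200. Per kb, Tmod3, which caps the slow-growing ends of actin filaments, had 452 ± 18.0, the adducin genes Add1 and Add3 had 393 ± 7.1 and 302 ± 15.6, and the protein 4.1 genes Epb41l2 and Epb41 had 303 ± 30.4 and 241 ± 23.6. The ankyrins, which tie spectrin to membrane proteins, were lower at 84.2 ± 13.2 for Ank1, 36.4 ± 3.1 for Ank2 and 23.1 ± 2.1 for Ank3. All of these partners lay below Sptbn1 on the same scale.

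Of the 13 partners of utrophin and dystrophin, 8 had a mean of at least 200 and the median was 313. Dag1, the dystroglycan that binds laminin outside the cell, had 276 ± 13.0 per kb, over Utrn at 116 ± 19.4. The sarcoglycans Sgcb and Sgce had 208 ± 17.3 and 156 ± 1.3 per kb, and Sgca and Sgcd, which are known from striated muscle, had 104 ± 19.7 and 15.7 ± 6.6. Sntb2, a syntrophin, one of the adaptors that bind utrophin, was at 164 ± 16.5 per kb.

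Talin and tensin partners had the highest median count of the partner lists. Of 20 genes, 19 were in the table (Fermt1 was not), 16 had a mean of at least 200, and the median was 1495. Lims2 had 779 ± 40.2 per kb, Ilk, the integrin-linked kinase, 532 ± 24.7, Itgb1, the beta 1 integrin, 486 ± 19.5, and Fermt2, kindlin 2, 479 ± 5.6. Vcl, vinculin, had 274 ± 37.2 per kb, level with Tln1, and the ratio of Tln1 to Vcl per kb was 1.07, 0.896 and 0.976. Fermt3 and Apbb1ip, genes of blood cells, had 11.2 ± 2.7 and 13.9 ± 3.6 per kb.

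Among the 11 plakin partners, 10 had a mean of at least 200 and the median was 873. Vim, vimentin, the intermediate filament protein of endothelial cells, led them with 775 ± 36.3 per kb. Des, the muscle filament protein desmin, had 279 ± 36.6. The microtubule plus-end genes Mapre2 and Mapre1 had 336 ± 13.2 and 308 ± 9.0, and Itgb4, the integrin that plectin and dystonin bind in hemidesmosomes, had 40.9 ± 10.2. Of the 4 AHNAK partners, Anxa2 had 833 ± 51.5 per kb, Anxa6 404 ± 3.8, S100a10 154 ± 8.3 and S100a11 60.3 ± 3.4. Other actin crosslinkers reached a mean of at least 200 in 12 of 12 cases (median 1346), and of these, Msn, moesin, had 593 ± 24.9 per kb and the filamins Flna and Flnc 164 ± 37.5 and 91.2 ± 27.4.

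The linker genes varied between mice about as much as other long genes. Their median coefficient of variation was 12.9%, against 7.37% over 9358 genes (mean of at least 200), and counting error alone would give 1.5% to 2.52% at their depth. The 275 genes with a coding sequence of 6000 bases or more had a median of 14.8%. Only Dst passed 20% (23.0%); 8.00% of these 9358 genes did so, and 24.4% of the long coding genes. Without mouse 3 the count was 0, and without mouse 2 it was 2.

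All 9 linker genes were highest in mouse 3, whereas 29.7% of the 9358 genes were, and 37.6% and 31.9% were highest in mice 1 and 2. Among genes with means of 1000 or more, 34.9% were highest in mouse 3. On the log2 scale, mouse 3 stood above the mean of mice 1 and 2 by 0.54 for Dst, 0.41 for Sptan1, 0.40 for Utrn, 0.31 for Plec, 0.30 for Macf1, 0.29 for Tln1, 0.28 for Sptbn1, 0.17 for Tns1 and 0.10 for Ahnak. The median over the 9358 genes was -0.02. The lowest mouse was mouse 1 for 5 members and mouse 2 for 4, so that mice 1 and 2 had no common order. Mouse 1 was lowest for 31.8% of the 9358 genes, but for 75.3% of the 275 genes with a coding sequence of 6000 bases or more.

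The share of genes highest in mouse 3 moved with transcript length across the whole table. It was 2.32% of 302 genes with a canonical transcript under 1000 bases, 20.3% of 3506 genes from 2000 to 4000 bases, 55.1% of 1054 genes from 6000 to 8000 bases and 72.8% of 125 genes of 12000 bases or more. By coding length the span was similar, from 9.86% of genes under 1000 bases to 78.5% of the 275 genes of 6000 bases or more, and the median log2 difference of these 275 genes was 0.28. By GC content the share over all genes lay between 28.7% and 31.3% in 4 classes. Within the long coding genes it was 72.0%, 89.6%, 70.7% and 79.5% from the lowest to the highest GC class, and the median log2 difference was 0.24, 0.27, 0.30 and 0.30. For the 8 members in the class of long coding sequences, the background was thus 78.5%, and all 8 being highest in mouse 3 is not far from it. The part that transcript length took in the members' differences was not tested.

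Relative to the median of the long coding genes, the linker genes differed among themselves. Dst exceeded that median by 0.26 on the log2 scale (place 21 of 275), Sptan1 by 0.13 and Utrn by 0.12. Plec and Macf1 lay 0.03 above it, Tln1 0.01 and Sptbn1 0.00. Ahnak lay at -0.17 (place 228 of 275), the only one of the 8 members in that class below the median. Tns1, with a coding sequence of 5478 bases, falls outside the class.

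**Figure D4:**
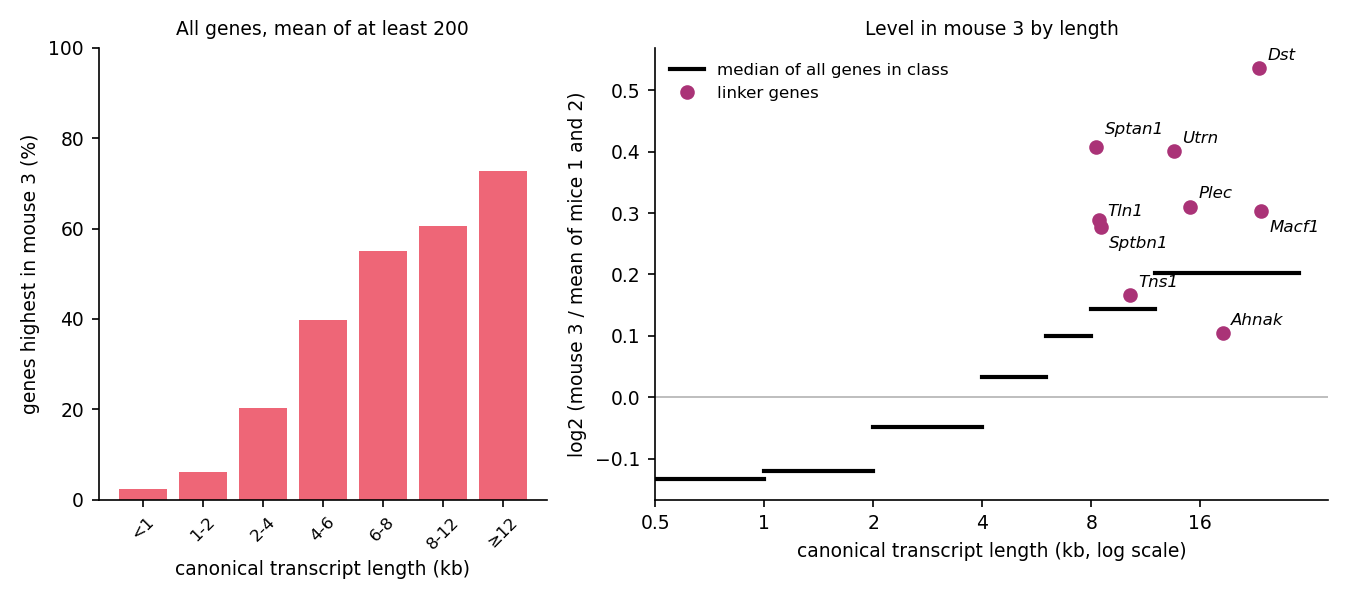
Left, share of genes (mean of at least 200) with their highest value in mouse 3 by class of canonical transcript length (bars, %). Right, log2 ratio of mouse 3 to the mean of mice 1 and 2 against canonical transcript length (log axis) for the 9 linker genes (points) and the median of all genes in each length class (black lines). The share rises from 2.32% to 72.8% from the shortest to the longest class. The lines stand at 0.14 for 8000 to 12000 bases and at 0.20 for 12000 bases or more. Dst (0.54) is the highest of the linker genes, and only Ahnak (0.10) lies below the line of its class.

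Other genes of giant proteins, a list that includes Ttn, Syne1 and Dync1h1, were highest in mouse 3 in 21 of 25 cases (84.0%), with a median log2 difference of 0.26. The partner genes that are not members were highest there in 26 of 48 cases. Endothelial markers, mostly of shorter transcripts, were highest in mouse 3 in 2 of 12 cases (Cdh5 and Ptprb), and cardiomyocyte markers in 3 of 10 (Ttn, Ryr2 and Tnnt2). The summed mural markers were 1610, 2002 and 2274 in mice 1, 2 and 3, with Myh11 at 31, 118 and 240, Tagln at 103, 206 and 338 and Acta2 at 67, 128 and 210. Pdgfrb at 212, 254 and 280 and Abcc9 at 383, 301 and 396 were also highest in mouse 3. The remaining mural markers were not, with Rgs5 at 542, 615 and 505, Kcnj8 at 138, 85 and 119 and Cspg4 at 134, 295 and 186. The summed cardiomyocyte markers were 22024, 22611 and 25572, the fibroblast markers 2703, 3229 and 3515 and the leukocyte markers 565, 728 and 757. All of these sums were highest in mouse 3, whereas the summed endothelial markers were 31442, 29951 and 30492. Within the cardiomyocyte sum, Ttn was at 7379, 7743 and 10190 and Ryr2 at 3280, 3667 and 4486, both also genes of giant proteins. Of the 10 cardiomyocyte markers, 6 were highest in mouse 1. The part of these cell types in the linker genes' values was not tested.

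For each linker gene, the gene outside the lists with the most similar counts over the 3 mice was found, taking the largest log2 difference in any mouse as the distance. Tln1 had the closest, Shank3 (2166, 2124 and 2526 counts, distance 0.04), then Utrn with Lama4, a laminin chain of vascular basement membranes (1408, 1454 and 1782, distance 0.08). Plec was closest to Pxdn (0.11), Sptan1 to Nfic (0.12), Tns1, Macf1 and Ahnak all to Nrp2 (0.11, 0.15 and 0.16), Sptbn1 to Cxcl12 (0.27) and Dst to Adgrf5 (0.35). For Dst, the genes (of means of 1000 or more) whose deviations from their own mean were most alike over the 3 mice included Crybg3, Igfbp5, Dchs1 and Hspg2, with distances from 0.02 to 0.03. Their canonical transcripts had 6006 to 14502 bases. A likeness over 3 libraries is a description of these libraries.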

How the data were processed

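Ribosome-associated RNA of 3 EC-RiboTag hearts was sequenced by the authors (NextSeq2000, Watchmaker mRNA kit). Per the study's methods and the submitters' processing notes, reads were trimmed (Trimmomatic 0.39), aligned to mm39 (STAR 2.7.11a), freed of duplicates (Picard 3.1.1) and of multi-mapping, ribosomal and mitochondrial reads, and counted over exons on the correct strand (featureCounts 2.0.4). The authors then divided the counts by a DESeq2 (1.36.0) size factor and rounded them. The unit of the deposited values is therefore a score, a normalized count and not a raw one, and no count model was used. Removing duplicates limits how many reads 1 position of a transcript can add to a value.

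Columns were matched to mice by sample title, and no column of another sample was found (0). Means, SDs, coefficients of variation, ranks and shares were computed with Python 3.11.15, numpy 2.4.6 and pandas 2.3.3, and figures with matplotlib 3.10.9. Lengths and windows came from GENCODE M39 on GRCm39, a later release than the Ensembl 109 models of the authors, and held 17475 of 17583 identifiers (99.39%). Gene coordinates are those of the deposited table. Comparisons across genes used a mean of at least 200, long genes had a coding sequence of at least 6000 bases, and variable genes had a coefficient of variation over 20%. The number of reads per library was estimated from the whole numbers between 5 and 120 that rounding leaves empty or doubles. The computations were tested on simulated data.

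The 9 members and all lists were chosen with earlier results of these data known. Genes named are the members, their families, partner and marker lists, the gene nearest to each member in counts, and the 5 genes nearest to a member in pattern where its coefficient of variation passed 20%; some of these genes and their sequences are not reported here. Alternatives included rescaling (trimmed means of log ratios, equal totals), the median over mice, minimum means of 100, 1000 or none, thresholds of 15% and 25%, joined exon or coding length, and leaving out each mouse. The labels call the libraries biological replicates. With 3 mice and 1 condition no test was run. Counting error is given for reads only and holds no error of amplification.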

Additional observations from a re-analysis of the deposited data

How the results depend on the processing

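Scaling by trimmed means or to equal totals, and the median over mice, moved none of the counts or shares beyond the spread between mice. No paired analysis was possible because there is a single group and no test. The number of linker genes with a coefficient of variation over the threshold was 4 at 15% and 0 at 25%, and 0 to 2 when 1 mouse was left out. By coding length Tns1 (727 per kb) passed Sptbn1 (626). The number among the highest 10% of genes per kb was 0 by coding length and 2 with no minimum mean. Leaving out 1 mouse gave 5 to 6 genes among the 100 highest and 5 to 9 genes highest in the same mouse, 5 being the value without mouse 3.

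Family shares depended on length. Per kb of canonical transcript they were 90.7% for Sptbn1, 25.2% for Dst, 23.5% for Macf1, 23.9% for Plec, 89.7% for Ahnak, 48.5% for Tns1 and 80.5% for Tln1. Per kb of joined exons they were 84.5% for Sptbn1, 17.0% for Dst, 21.97% for Macf1, 25.9% for Plec, 87.1% for Ahnak, 69.6% for Utrn, 40.5% for Tns1 and 84.2% for Tln1. Leaving out 1 mouse moved no share by more than its SD over mice (Dst 32.3% to 34.3%, Tln1 73.0% to 75.8%).

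Relative to the median of genes with a mean of at least 200, list medians that were higher in counts were lower per kb, on the log2 scale, for plakins (-0.29), the AHNAK pair (-0.46), the dystrophin family (-1.59), talins (-0.085), plakin partners (-0.10), actin crosslinkers (-0.027) and giant proteins (-1.25), by the division by length itself. Of the values of single genes and lists, 126 stayed within the spread between mice, 28 moved, most of them with the length used, and these 7 reversed. At this depth, counting error matters for genes of a few counts, such as Tns4 and Eppk1.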
